A study of Homo sapiens with 20 samples.

Results

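The genes described here are 48 neighbours on the long arm of human chromosome 12, bands q13 to q15, that run from DTX3 through CDK4, TBK1 and HMGA2 to MDM2. They were chosen by their place on the chromosome and because neighbours in this stretch had lower RNA levels in prexasertib-resistant Rh41 cells, so their values in Rh41 are a description: the call threshold serves there only to sort the genes, and no p-value or error is given. Of the 48 genes, 46 had a transcript cluster, the set of array probes that measures a gene, among the 17709 clusters that carried 1 gene symbol; USP15 and IRAK3 were not analysed here. All 48 lay on chromosome 12 in this order in the RefSeq annotation of GRCh38.p14, and 2 other coding genes of the interval with a cluster, C12orf56 and TBC1D30, were not members.

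Prexasertib inhibits CHK1, a kinase of the replication checkpoint, and the study compared tumour cells with acquired resistance to it with their parental cells on Clariom S arrays. The 20 arrays formed 6 groups of established lines: NCI-H520 prexasertib resistant and NCI-H520 parental cells, a lung squamous cell carcinoma line, with 3 arrays each; SJCRH30 resistant and SJCRH30 parental cells, an alveolar rhabdomyosarcoma line, with 3 arrays each; and Rh41 prexasertib resistant and Rh41 parental cells, also alveolar rhabdomyosarcoma, with 5 and 3 arrays. Resistance was raised by increasing drug concentrations in culture in NCI-H520 and Rh41. The SJCRH30 resistant line was grown from a xenograft that had regrown after treatment of the mouse. Its parental partner came from a xenograft of a vehicle-treated mouse. According to the paper, the established tumour lines were then passaged with prexasertib in the medium. It also describes Rh41 control cultures kept in DMSO, and the labels do not say whether the parental Rh41 arrays came from these. The labels call the arrays biological replicates; the NCI-H520 and SJCRH30 groups each came from 1 line, so p-values there measure the spread between cultures of a line, whereas the Rh41 resistant arrays came from independently exposed cultures. The SJCRH30 lines thus have separate xenografts of origin, and whether the drug was in the medium at RNA collection is not stated, so neither can be told apart from resistance. Skeletal muscle markers had a mean of log2 5 or more for 6 of 8 genes in both groups of SJCRH30 and of Rh41, and for 4 of 8 in resistant and 3 of 8 in parental NCI-H520 cells. Of the squamous and epithelial markers 3 of 6 reached that level in both groups of NCI-H520 and 2 to 4 of 6 in the rhabdomyosarcoma groups. Array means over this list were 9.56 to 10.3 in NCI-H520 and 5.13 to 5.82 in SJCRH30. Over the muscle list they were 4.75 to 5.10 and 10.2 to 10.4. In Rh41, whose arrays were on a narrower scale, the squamous means were 4.99 to 5.21 and the muscle means 8.20 to 8.39. The part of these cell types in the results below was not tested.

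CDK4 is a kinase that, with D-type cyclins, phosphorylates the retinoblastoma protein and so drives entry into S phase, and MDM2 is the ubiquitin ligase that holds p53 down. These genes, with HMGA2 and their neighbours, are known as a unit because stretches of this part of the chromosome are amplified in several sarcomas, in liposarcoma above all and in some alveolar rhabdomyosarcomas, which raises the RNA of many neighbouring genes at once. TBK1, in the same stretch, is the kinase that passes signals from STING and other parts of nucleic acid sensing to IRF3. The arrays measure RNA and not DNA copy number.

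The start regions of 4 members whose levels the results turn on are printed for sequence context, since the genes of the stretch share a place on the chromosome but not a promoter. CDK4 and ATP23 stand for the genes from DTX3 to LRIG3, which were high in SJCRH30 cells, and AVIL and WIF1 for the largest rises in resistant NCI-H520 cells. Each line gives the 250 bases before the RefSeq gene start (GRCh38.p14) from 5′ to 3′ on the gene's own strand. Capitals mark matches, on either strand, to the GC box (GGGCGG), the CCAAT box (CCAAT), the MYC E-box (CACGTG) or the E2F motif (TTTGGCGC, TTTCCCGC, TTTCGCGC or TTTGCCGC).
CDK4, chr12:57752311-57752560, minus strand: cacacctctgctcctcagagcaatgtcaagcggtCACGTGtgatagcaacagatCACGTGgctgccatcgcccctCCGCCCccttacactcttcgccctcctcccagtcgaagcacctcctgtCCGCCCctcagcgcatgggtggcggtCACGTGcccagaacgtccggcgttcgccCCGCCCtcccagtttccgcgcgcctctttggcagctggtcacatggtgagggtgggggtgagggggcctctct
ATP23, chr12:57941317-57941566, plus strand: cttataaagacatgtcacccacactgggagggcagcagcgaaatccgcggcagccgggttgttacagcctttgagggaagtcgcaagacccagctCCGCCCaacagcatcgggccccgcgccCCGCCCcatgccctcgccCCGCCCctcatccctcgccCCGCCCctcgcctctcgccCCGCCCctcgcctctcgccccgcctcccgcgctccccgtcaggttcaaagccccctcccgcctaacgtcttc
AVIL, chr12:57818735-57818984, minus strand: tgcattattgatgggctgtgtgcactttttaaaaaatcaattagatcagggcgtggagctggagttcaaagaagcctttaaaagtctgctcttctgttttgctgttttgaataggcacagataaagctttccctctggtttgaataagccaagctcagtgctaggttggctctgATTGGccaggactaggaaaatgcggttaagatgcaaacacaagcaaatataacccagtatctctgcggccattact
WIF1, chr12:65121306-65121555, minus strand: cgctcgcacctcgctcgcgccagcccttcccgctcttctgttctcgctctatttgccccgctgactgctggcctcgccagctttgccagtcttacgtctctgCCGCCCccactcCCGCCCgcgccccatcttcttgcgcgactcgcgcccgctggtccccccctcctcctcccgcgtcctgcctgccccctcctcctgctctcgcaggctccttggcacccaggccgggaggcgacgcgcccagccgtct
The CDK4 window held 3 GC boxes and 3 MYC E-boxes, the ATP23 window 5 GC boxes, the AVIL window 1 CCAAT box and the WIF1 window 2 GC boxes. Of the 48 members 36 had a window in the table; 21 of them held a GC box, 12 a CCAAT box, 7 a MYC E-box and 3 the E2F motif. Of 27305 windows of that length in all genes 42.3% held the GC box, 33.0% the CCAAT box, 6.49% the MYC E-box and 2.79% the E2F motif. The sets were not matched for kind of gene, and a difference between them was not tested.

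In resistant Rh41 cells the genes of the stretch were lower together, and in this line that pattern is what they were chosen for. Of the 46 measured genes 23 fell past the threshold, a limma adjusted p under 0.05 together with a fold above 1.5, and 0 rose. Over all 17709 clusters 3.08% fell and 5.69% rose, and nothing is read from the gap because the genes were chosen on this contrast. In RNA from bulk cultures, fewer cells that express a gene and less RNA per cell cannot be told apart. The median log2 change of the 46 was −0.58, with 42 values below 0, against a median of −0.035 over all clusters. In 37 of the 46, every resistant array lay below every parental array, which held for 12.6% of all clusters, and in 0 did every resistant array lie above.

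The shift was present in each resistant culture. The median deviation of the 46 genes from the parental mean was −0.60, −0.52, −0.59, −0.59 and −0.55 in resistant cultures 1 to 5, with 41, 42, 44, 43 and 39 of the 46 genes below that mean. The parental arrays, set against their own mean, had medians of 0.015, 0.014 and −0.029.

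**Figure D1:**
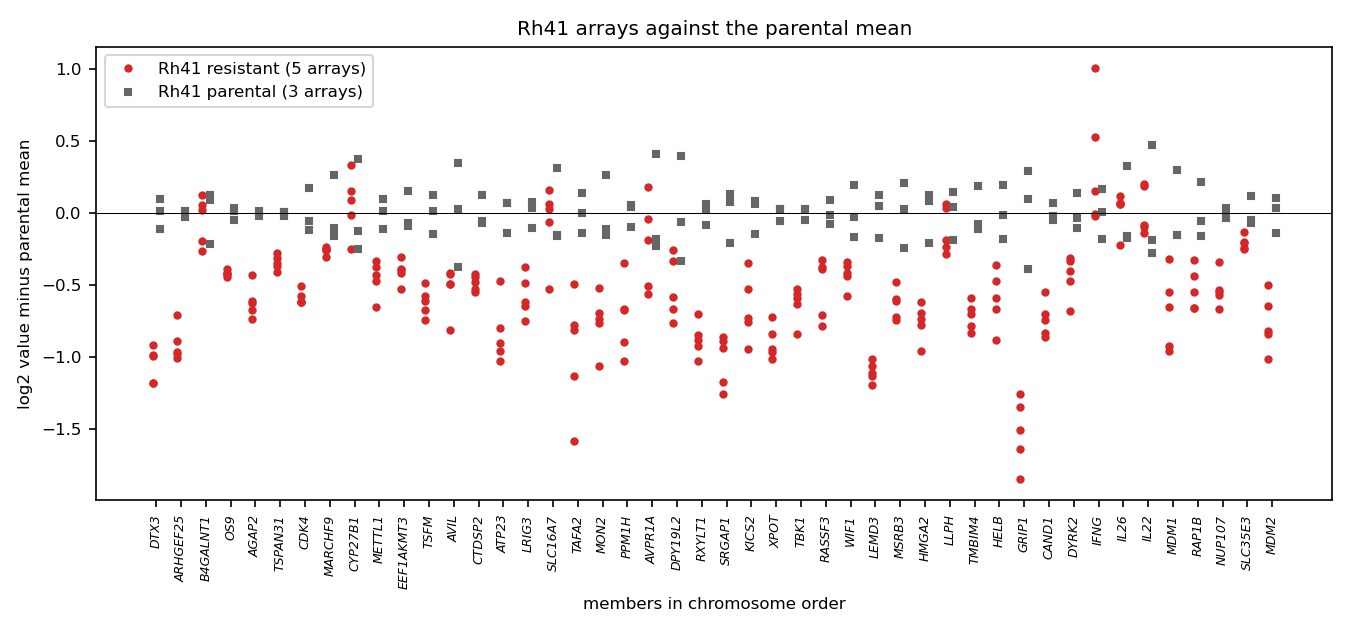
Log2 values of each Rh41 array minus the mean of the parental arrays (y axis) for the 46 measured genes in chromosome order (x axis); circles are the 5 resistant arrays and squares the 3 parental arrays. For 37 genes all circles lie below all squares, and IFNG, IL26, IL22 and CYP27B1 are the genes whose resistant mean is not below 0.

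CDK4 had log2 values of 9.73, 9.77, 9.84, 9.73 and 9.73 in resistant Rh41 cultures, against 10.23, 10.29 and 10.52 in parental Rh41 cultures, a change of −0.59. MDM2 had values of 7.40, 7.92, 7.77, 7.60 and 7.58 in resistant cultures, against 8.45, 8.28 and 8.52 in parental cultures, a change of −0.76. TBK1 stood at 7.08, 7.39, 7.33, 7.36 and 7.29 in resistant and 7.95, 7.94 and 7.87 in parental cultures, a change of −0.63. In all 3 genes the groups did not overlap, and the resistant cultures lay close to each other for CDK4 but were more spread for MDM2. HMGA2, a chromatin protein of embryonic tissue, had values of 7.09, 7.01, 6.83, 7.17 and 7.05 in resistant and 7.87, 7.91 and 7.58 in parental cultures (−0.76). OS9, a lectin of the endoplasmic reticulum that sorts misfolded proteins for degradation, had 9.51, 9.49, 9.52, 9.51 and 9.55 in resistant and 9.89, 9.95 and 9.97 in parental cultures (−0.42). TSPAN31, a tetraspanin whose span in RefSeq overlaps that of CDK4, had 8.20, 8.24, 8.27, 8.18 and 8.14 in resistant and 8.56, 8.53 and 8.56 in parental cultures (−0.34). These groups did not overlap either, but the changes of OS9 and TSPAN31 stayed under 1.5-fold.

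The 8 largest falls past the threshold lay scattered along the stretch. GRIP1, a synaptic scaffold protein, fell most, with 5.90, 6.15, 6.06, 5.56 and 5.77 in resistant cultures and 7.70, 7.02 and 7.51 in parental cultures, a change of −1.52. LEMD3, an inner nuclear membrane protein that restrains SMAD signalling, had 7.78, 7.73, 7.66, 7.60 and 7.68 in resistant and 8.92, 8.84 and 8.62 in parental cultures (−1.11). DTX3, a RING-domain protein of the Deltex family at the near end of the stretch, had 6.68, 6.95, 6.87, 6.68 and 6.88 in resistant and 7.96, 7.75 and 7.88 in parental cultures (−1.05). No resistant culture reached the parental range in any of these genes. SRGAP1, a GTPase-activating protein of Slit and Robo signalling, had 7.16, 7.19, 7.11, 6.88 and 6.79 in resistant and 8.18, 7.84 and 8.13 in parental cultures (−1.02). TAFA2, a small secreted protein, had 4.91, 4.88, 5.20, 4.11 and 4.56 in resistant and 5.69, 5.55 and 5.83 in parental cultures (−0.96), with the resistant mean under log2 5, a level taken here as low signal. ARHGEF25, a guanine nucleotide exchange factor, had 6.29, 6.55, 6.37, 6.25 and 6.28 in resistant and 7.27, 7.27 and 7.23 in parental cultures (−0.91). In these genes too the groups stood apart, with culture 4 the lowest for TAFA2. XPOT, the nuclear exporter of tRNA, had 9.28, 9.04, 9.06, 8.99 and 9.16 in resistant and 10.03, 10.03 and 9.95 in parental cultures (−0.90). RXYLT1, a glycosyltransferase that acts on dystroglycan, had 6.67, 6.89, 6.56, 6.74 and 6.71 in resistant and 7.61, 7.65 and 7.51 in parental cultures (−0.88).

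The other falls past the threshold were those of ATP23 (−0.83), MON2 (−0.76), PPM1H and CAND1 (both −0.73), TMBIM4 (−0.71), MDM1 (−0.68), KICS2 (−0.66), MSRB3 (−0.63), AGAP2 and TSFM (both −0.61) and HELB (−0.59). They cover roles that have little in common: CAND1 exchanges the substrate receptors of cullin ubiquitin ligases, MON2 acts in traffic between endosomes and the Golgi, KICS2 is a subunit of the KICSTOR complex of amino acid sensing, and TSFM is a mitochondrial translation factor. LRIG3 (−0.57), AVIL and NUP107 (both −0.53), RAP1B, DPY19L2 and RASSF3 (all −0.52), CTDSP2 (−0.49), METTL1 (−0.45), DYRK2 (−0.44), WIF1 (−0.43), EEF1AKMT3 (−0.40), MARCHF9 (−0.27), AVPR1A (−0.22), SLC35E3 (−0.21), LLPH (−0.12), SLC16A7 (−0.07) and B4GALNT1 (−0.05) lay below 0 without passing the threshold. The genes not below 0 were CYP27B1 (0.06), which encodes the vitamin D 1-alpha-hydroxylase, and the cytokine genes IFNG (0.34), IL26 (0.02) and IL22 (0.01). The means of the 3 cytokine genes lay under log2 5 in every group of the series, and among the 40 members with a mean of 5 or more over the Rh41 arrays 39 were below 0 (median −0.61).

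Along chromosome 12 the low values reached past the ends of the stretch. The scan that follows uses the changes the genes were chosen on and is a description alone. Of 605 windows of 15 neighbouring clusters with a mean of log2 5 or more, the lowest median was −0.76, in the window from ATP23 to HMGA2, whose 15 genes were all members. A run of 29 windows from OS9 to CNOT2 had medians between −0.76 and −0.52, and 5 further windows, from CS to INHBE on the side towards the centromere, had a median of −0.51. No window of the chromosome exceeded that from CHST11 to PRDM4, at 0.44. Chromosome 12 as a whole had a median of −0.018 over 619 clusters, and 0.0076 over the 579 clusters left when the members were taken out, whereas the medians of the chromosomes ranged between −0.19 on chromosome 4 and 0.18 on chromosome 5.

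Most neighbours on either side lay below 0, and most did not pass the threshold. Over all clusters 55.0% of the changes were below 0, 3.08% fell past the threshold and 5.69% rose. These counts too are a description, since the stretch was chosen on this contrast. Of 20 measured genes on the side of the centromere, 5 fell and 0 rose, with 17 below 0 and a median of −0.21. Over the 15 at a mean of 5 or more the median was −0.24, with 14 below 0. NEMP1, a nuclear envelope protein, and NXPH4, a neurexophilin, had the largest falls there (−0.76 and −0.74). Of 20 genes on the far side 4 fell and 2 rose, with 16 below 0 and a median of −0.26. Over the 13 at a mean of 5 or more the median was −0.45, with 12 below 0. LGR5, a receptor of R-spondins, was at −2.19 and TBC1D15, a Rab GTPase-activating protein, at −0.98. The receptor-type phosphatases PTPRR and PTPRB were at 1.67 and 0.94. At the edges, the members DTX3 (−1.05) and MDM2 (−0.76) were lower than the adjoining genes PIP4K2C (−0.16) and CPM (−0.21). Inside the interval, the non-members TBC1D30 (−0.69) and C12orf56 (−0.17), both under log2 5 on average, did not pass the threshold.

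**Figure D2:**
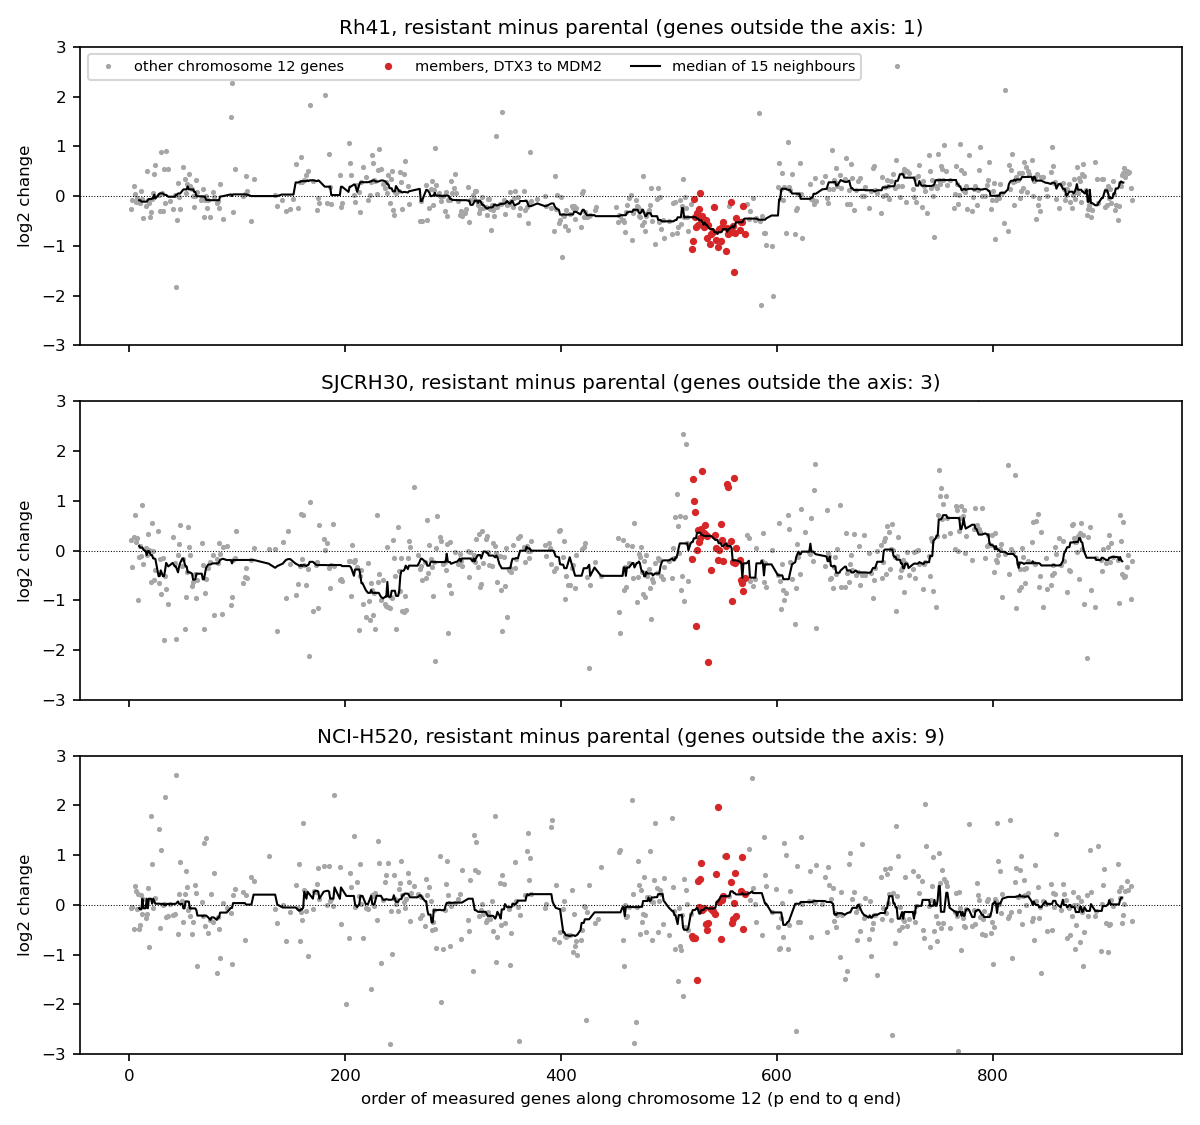
Log2 change, resistant minus parental (y axis), of chromosome 12 clusters with a mean of log2 5 or more in the line, against their order along the chromosome (x axis), for Rh41, SJCRH30 and NCI-H520; red points are the members and the line is the median of 15 neighbours. The line reaches −0.76 inside the stretch in Rh41. Windows made of members alone stayed between 0.21 and 0.36 in SJCRH30 (13 windows) and between −0.10 and −0.057 in NCI-H520 (9 windows). These windows ended at HMGA2 in SJCRH30 and at RASSF3 in NCI-H520, so the ranges do not describe the whole stretch. They leave out GRIP1 (1.47) and TMBIM4 (−1.01) in SJCRH30, among others. In NCI-H520 they leave out, among others, WIF1 (4.12), MSRB3 (3.14) and SLC35E3 (−0.48).

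Rh41 arrays were on a narrower scale than the other arrays, with a standard deviation of 1.99 against 2.99, so log2 changes and levels are compared in size only between NCI-H520 and SJCRH30, and Rh41 is set beside them in direction or by percentile.

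The rule did not use the levels of the parental lines, and here part of the stretch was far higher in SJCRH30 than in NCI-H520 cells. Of the 46 genes 29 were higher and 6 lower in parental SJCRH30 than in parental NCI-H520 cells, whereas 22.2% of all clusters were higher and 22.1% lower. The higher genes were gathered at the near end: all 16 from DTX3 to LRIG3 passed the threshold, with changes of 2.16 to 6.23 (median 4.39) and no overlap between the arrays of the lines. Over the 46 genes the arrays stood apart upwards in 31 and downwards in 6, against 27.0% and 26.6% of all clusters. Of the 30 from SLC16A7 to MDM2, 13 were higher and 6 lower (median 0.48), and the median over all clusters was 0.023. The split after LRIG3 was made after the values were seen and has no test of its own. In the window scan of the chromosome, none of 590 windows exceeded that from DTX3 to ATP23, with a median of 4.42.

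CDK4 had log2 values of 17.41, 17.53 and 17.45 in parental SJCRH30 cells, against 11.24, 11.35 and 11.49 in parental NCI-H520 cells, a difference of 6.11 (SE 0.19, limma adjusted p = 8.64e-12). METTL1, the tRNA 7-methylguanosine methyltransferase, had 11.77, 11.58 and 11.38 in SJCRH30 and 5.73, 4.51 and 5.80 in NCI-H520 cells, a difference of 6.23 (SE 0.30, limma adjusted p = 7.99e-10). AGAP2, a GTPase-activating protein of Arf proteins, had 10.48, 9.24 and 10.22 in SJCRH30 and 3.84, 4.79 and 4.25 in NCI-H520 cells (5.69, SE 0.31), with the NCI-H520 mean at low signal. In each the distance between the lines was many times the spread of the arrays. ARHGEF25 had 11.67, 11.68 and 11.99 in SJCRH30 and 6.68, 6.38 and 6.98 in NCI-H520 cells (5.10, SE 0.21). OS9 had 16.69, 16.93 and 17.13 in SJCRH30 and 12.92, 12.82 and 12.97 in NCI-H520 cells (4.01, SE 0.20). TSPAN31 had 15.09, 15.18 and 14.98 in SJCRH30 and 11.36, 11.30 and 11.42 in NCI-H520 cells (3.72, SE 0.18). The remaining genes up to LRIG3 followed the same order of the lines: EEF1AKMT3, a methyltransferase of elongation factor eEF1A, at 4.90, MARCHF9, a membrane-bound ubiquitin ligase, at 4.89, the mitochondrial protease ATP23 at 4.89, TSFM at 4.42, the phosphatase CTDSP2 at 4.37, LRIG3, a leucine-rich repeat membrane protein, at 4.17, the ganglioside synthase B4GALNT1 at 3.08 with a low NCI-H520 mean, DTX3 at 2.53, the actin-binding advillin gene AVIL at 2.45 and CYP27B1 at 2.16.

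Past LRIG3 the order of the lines was mixed. SLC16A7, a monocarboxylate transporter, differed by 0.03 with both lines at low signal, MON2 by −0.10 (SE 0.23) and TBK1 by 0.05. TBK1 had 8.91, 9.11 and 9.47 in parental SJCRH30 and 9.20, 9.13 and 9.01 in parental NCI-H520 cells, groups that overlapped, with a 95% interval of the difference from −0.39 to 0.49 (limma adjusted p = 0.865). HMGA2 had 6.72, 7.30 and 7.23 in SJCRH30 and 4.64, 3.33 and 4.47 in NCI-H520 cells (2.93, SE 0.31, limma adjusted p = 2.37e-06), with the NCI-H520 mean at low signal, so that the size of the difference is uncertain. MDM2 had 10.01, 10.07 and 9.85 in SJCRH30 and 8.85, 8.60 and 8.68 in NCI-H520 cells (1.27, SE 0.19, limma adjusted p = 6.74e-05). CAND1 (2.45), SRGAP1 (2.43), the nuclear pore gene NUP107 (2.05), the kinase gene DYRK2 (1.79), the small GTPase gene RAP1B (1.79), SLC35E3 (1.69), the methionine sulfoxide reductase gene MSRB3 (1.30), LLPH (1.25), the helicase gene HELB (1.21), the centriole gene MDM1 (1.07, the NCI-H520 mean under 5) and, with means under 5 in both lines, IL26 (0.82) were higher too. The Wnt inhibitor gene WIF1 (−2.84), XPOT (−1.83), TMBIM4 (−1.38), the phosphatase gene PPM1H (−1.25), RASSF3 (−0.90) and KICS2 (−0.76) were lower in SJCRH30 cells, where the means of WIF1 and PPM1H were under 5. RXYLT1 (1.07), LEMD3 (0.52), GRIP1 (0.44), AVPR1A (0.35), TAFA2 (0.31), IFNG (0.08), IL22 (−0.21) and DPY19L2 (−0.22) did not pass the threshold.

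On the centromere side, 15 of 20 neighbours were higher and 2 lower in parental SJCRH30 cells (median 1.11), against 22.2% and 22.1% of all clusters. Among the higher were STAC3, a gene of muscle excitation-contraction coupling, at 10.36 and the lipoprotein receptor gene LRP1 at 4.72. DCTN2, a dynactin subunit, was at −0.93 and R3HDM2 at −0.92. On the far side 4 of 20 were higher and 4 lower (median 0.27), with TMEM19 at 2.88, KCNMB4 at 1.54, RAB3IP at −2.44 and LYZ at −0.81 beyond the threshold. The lines also differ in cell lineage, with MYOG, a muscle transcription factor, at 10.13 and the epithelial adhesion gene EPCAM at −10.41 between the same arrays, and the part of lineage in the difference was not tested.

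**Figure D3:**
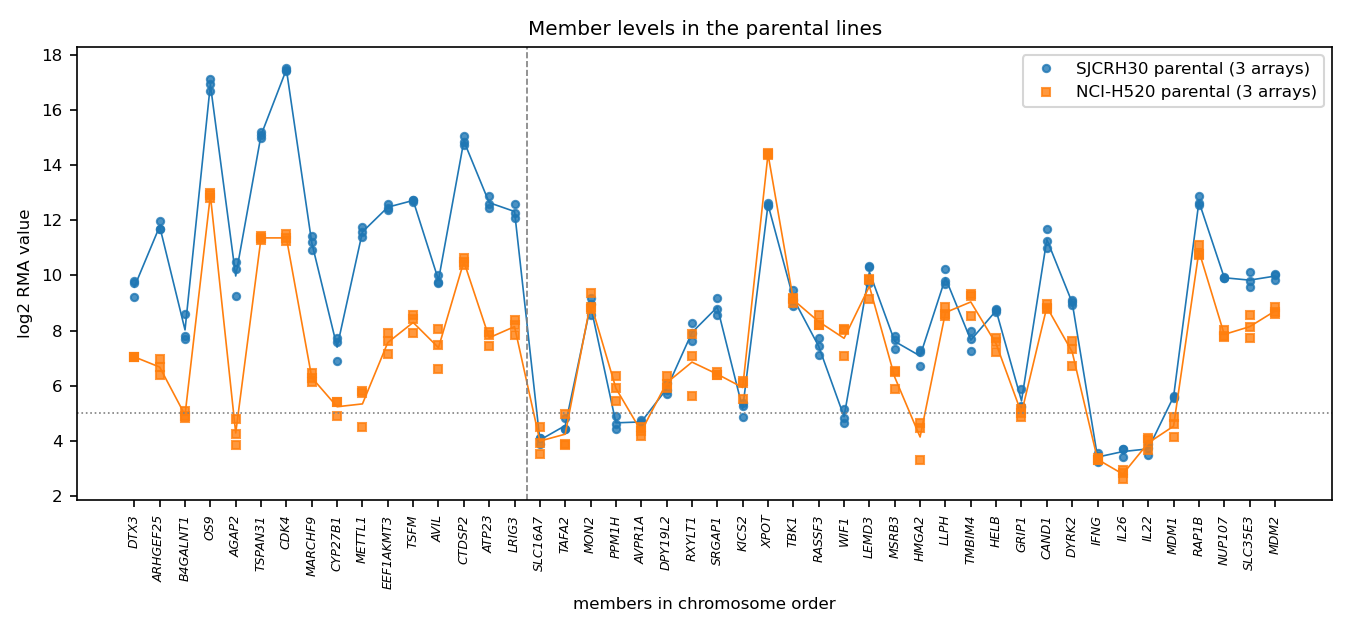
Log2 values of the 46 genes in chromosome order (x axis) in parental SJCRH30 (circles) and parental NCI-H520 (squares) arrays, 3 each, with lines through the means; the dashed vertical line stands after LRIG3 and the dotted horizontal line at log2 5. All 16 genes left of the dashed line are higher in SJCRH30, by 2.16 to 6.23, whereas the lines cross repeatedly right of it.

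The same order was seen among the resistant cells of these lines, a comparison added after the first results. From DTX3 to LRIG3, 15 of 16 genes were higher in resistant SJCRH30 than in resistant NCI-H520 cells and AVIL was lower (−2.04), with a median of 5.08; over the 46 genes 25 were higher and 7 lower, against 21.1% and 22.1% of all clusters, and the arrays did not overlap in 27 upwards and 9 downwards, against 26.1% and 26.5%. By percentile among the named clusters of an array, a measure that does not depend on the scale, the 16 genes had a median of 95.3 in resistant and 94.1 in parental SJCRH30 cells, 64.2 in resistant and 73.3 in parental Rh41 cells, and 59.9 in resistant and 61.2 in parental NCI-H520 cells. Parental SJCRH30 cells had the highest percentile of the 3 parental lines for 15 of these 16 genes and for 5 of the 30 genes from SLC16A7 to MDM2. CDK4 itself was among the most strongly detected genes of each line, at percentile 99.9 in parental SJCRH30, 98.7 in parental Rh41 and 91.3 in parental NCI-H520 cells.

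**Figure D4:**
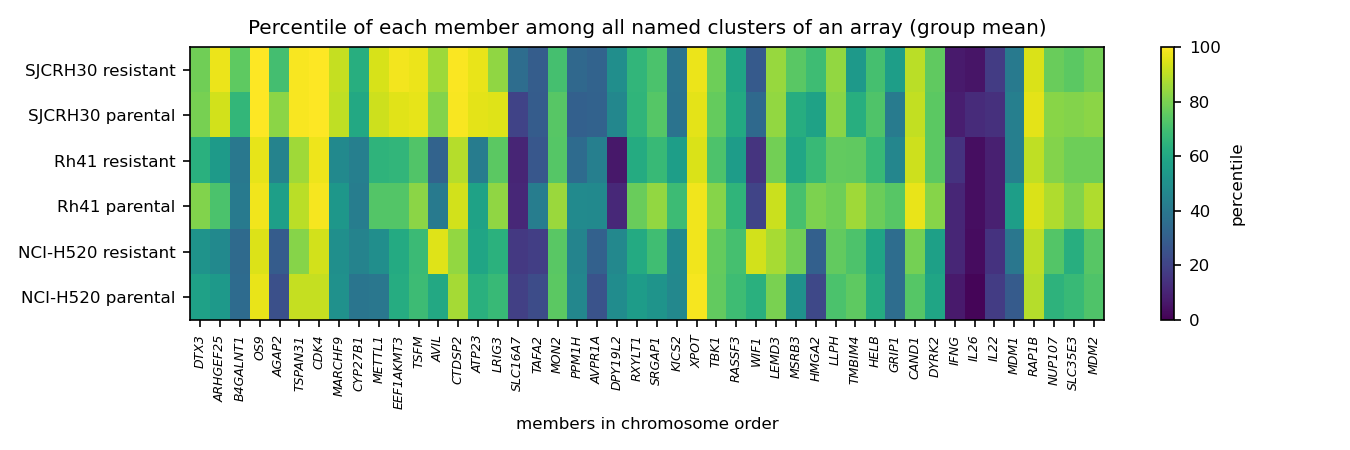
Percentile of each of the 46 genes (x axis, chromosome order) among all named clusters of the array, as group means (colour, 0 to 100), for the resistant and parental groups of SJCRH30, Rh41 and NCI-H520 (rows). The genes from DTX3 to LRIG3 are brightest in both SJCRH30 rows, with medians of 95.3 and 94.1, and AVIL and WIF1 are bright in the resistant NCI-H520 row.

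In resistant SJCRH30 cells the genes of the stretch moved in both directions, 8 up and 6 down of 46, against 9.42% of all clusters up and 9.28% down. The median change was 0.08, beside 0.0070 over all clusters, and the medians of the 3 resistant arrays were 0.032, 0.15 and 0.15. Every resistant array lay above every parental array in 14 genes and below in 8, against 17.4% and 16.8% of all clusters. From DTX3 to LRIG3, 13 of 16 changes were above 0 (median 0.34), with the arrays apart upwards in 9 genes and downwards in 2. From SLC16A7 to MDM2, 16 of 30 were above 0 (median 0.02), with 5 apart upwards and 6 downwards. This split was made after the values were seen and has no test of its own. Clusters of chromosome 12 with a mean of 5 or more had a median of −0.20 in this line, and of −0.21 without the members.

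EEF1AKMT3 rose most, with 14.00, 14.09 and 14.12 in resistant and 12.46, 12.38 and 12.58 in parental SJCRH30 cells, a change of 1.60 (SE 0.18, limma adjusted p = 6.59e-05). GRIP1 had 7.39, 6.30 and 7.08 in resistant and 5.87, 5.28 and 5.22 in parental cells, 1.47 (SE 0.28, limma adjusted p = 0.00258). ARHGEF25 had 13.09, 13.05 and 13.52 in resistant and 11.67, 11.68 and 11.99 in parental cells, 1.44 (SE 0.20, limma adjusted p = 0.000352). These 3 rises concern a methyltransferase, a scaffold and a nucleotide exchange factor, and in each the lowest resistant array lay above the highest parental one. MSRB3 had 8.78, 8.99 and 9.04 in resistant and 7.81, 7.67 and 7.35 in parental cells (1.33, SE 0.20). HMGA2 had 7.97, 8.55 and 8.58 in resistant and 6.72, 7.30 and 7.23 in parental cells, 1.28 (SE 0.23, limma adjusted p = 0.0019). B4GALNT1, whose product makes the gangliosides GM2 and GD2, had 9.16, 8.90 and 9.03 in resistant and 8.59, 7.79 and 7.70 in parental cells, 1.0 (SE 0.24, limma adjusted p = 0.0106). The parental arrays of B4GALNT1 were uneven, with replicate 1 close to the resistant values. OS9 had 17.63, 17.67 and 17.76 in resistant and 16.69, 16.93 and 17.13 in parental cells, 0.77 (SE 0.19, limma adjusted p = 0.0132). SLC16A7 had 5.10, 4.89 and 4.99 in resistant and 4.10, 4.11 and 3.90 in parental cells (0.96, SE 0.18), with both means under log2 5.

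LRIG3 fell most, with 10.15, 10.05 and 10.01 in resistant and 12.60, 12.28 and 12.07 in parental SJCRH30 cells, a change of −2.25 (SE 0.20, limma adjusted p = 7.95e-06). AGAP2 had 8.65, 8.49 and 8.26 in resistant and 10.48, 9.24 and 10.22 in parental cells, −1.51 (SE 0.28, limma adjusted p = 0.00224). TMBIM4, a Golgi membrane protein of the Bax inhibitor family, had 6.83, 6.47 and 6.66 in resistant and 7.71, 7.98 and 7.28 in parental cells (−1.01, SE 0.22). The groups were apart in all 3, although parental replicate 2 of AGAP2 stood below the other parental arrays. SLC35E3, a member of the nucleotide sugar transporter family, had 8.91, 9.11 and 9.01 in resistant and 9.59, 9.79 and 10.11 in parental cells (−0.82, SE 0.20). NUP107 had 9.12, 9.51 and 9.18 in resistant and 9.94, 9.89 and 9.92 in parental cells, −0.65 (SE 0.19, limma adjusted p = 0.03). RAP1B had 12.11, 12.06 and 12.06 in resistant and 12.54, 12.86 and 12.62 in parental cells, −0.60 (SE 0.18, limma adjusted p = 0.038). The calls of NUP107 and RAP1B lay close to the threshold, and RAP1B lost its call when any 1 of the 6 arrays was left out.

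CDK4, at 17.84, 17.84 and 17.92 in resistant and 17.41, 17.53 and 17.45 in parental SJCRH30 cells, differed by 0.40 (95% interval 0.02 to 0.79, limma adjusted p = 0.142) and did not pass, although the groups did not overlap. MDM2 had 9.55, 9.25 and 9.50 in resistant and 10.01, 10.07 and 9.85 in parental cells, a change of −0.54 (limma adjusted p = 0.0607). TBK1 had 9.48, 9.40 and 9.24 in resistant and 8.91, 9.11 and 9.47 in parental cells (0.21), and TSPAN31 15.12, 14.95 and 15.19 in resistant and 15.09, 15.18 and 14.98 in parental cells (0.00, 95% interval −0.39 to 0.40). The groups overlapped for TBK1 and TSPAN31 but not for MDM2.

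Of the 46 genes 8 were higher past the threshold in resistant NCI-H520 cells and 4 lower, against 10.1% of all clusters that rose and 9.90% that fell. The median change was 0.05, beside 0.0065 over all clusters, and the groups did not overlap in 13 genes upwards and 5 downwards, against 17.7% and 16.7% of all clusters. AVIL, which codes for an actin-severing protein of the villin family, had 12.28, 12.52 and 12.35 in resistant and 8.06, 6.62 and 7.47 in parental NCI-H520 cells, a rise of 5.0 (SE 0.31, limma adjusted p = 8.45e-07). WIF1, a secreted inhibitor of Wnt ligands, had 11.82, 11.90 and 11.80 in resistant and 7.09, 8.01 and 8.07 in parental cells, a rise of 4.12 (SE 0.26, limma adjusted p = 9.9e-07). MSRB3 had 9.33, 9.24 and 9.78 in resistant and 5.90, 6.54 and 6.50 in parental cells, 3.14 (SE 0.23, limma adjusted p = 3.58e-06). The resistant arrays agreed closely for AVIL and WIF1, the parental arrays of AVIL spread over more than a unit, and in all 3 genes the groups stood far apart. TSFM, whose RefSeq span overlaps that of AVIL, had a change of −0.06 (SE 0.22) in the same cells.

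SRGAP1 had 8.68, 8.16 and 8.33 in resistant and 6.49, 6.40 and 6.38 in parental NCI-H520 cells, a rise of 1.97 (SE 0.20, limma adjusted p = 3.22e-05). LEMD3 had 10.54, 10.67 and 10.52 in resistant and 9.82, 9.87 and 9.13 in parental cells (0.97, SE 0.23). NUP107 had 8.64, 8.75 and 9.08 in resistant and 8.02, 7.76 and 7.81 in parental cells, 0.96 (SE 0.20, limma adjusted p = 0.00437). The spread of LEMD3 came from parental replicate 3, and none of these groups overlapped. MDM1 had 5.33, 5.20 and 5.42 in resistant and 4.88, 4.60 and 4.14 in parental cells (0.78, SE 0.22), with the parental mean at low signal. CAND1 had 9.51, 9.41 and 9.57 in resistant and 8.82, 8.95 and 8.80 in parental cells, 0.64 (SE 0.18, limma adjusted p = 0.0239).

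TSPAN31 had 9.87, 9.93 and 9.77 in resistant and 11.36, 11.30 and 11.42 in parental NCI-H520 cells, a change of −1.50 (SE 0.18, limma adjusted p = 0.000104). Its overlapping neighbour CDK4 had 11.80, 11.82 and 11.87 in resistant and 11.24, 11.35 and 11.49 in parental cells, a change of 0.47 (95% interval 0.08 to 0.86, limma adjusted p = 0.0903). The arrays of both genes were tight and did not overlap between groups, TSPAN31 below and CDK4 above the parental arrays. XPOT had 13.65, 13.58 and 13.92 in resistant and 14.41, 14.36 and 14.42 in parental cells, −0.68 (SE 0.18, limma adjusted p = 0.0216). OS9 had 12.18, 12.21 and 12.33 in resistant and 12.92, 12.82 and 12.97 in parental cells, −0.66 (SE 0.18, limma adjusted p = 0.0197). DTX3 had 6.45, 6.57 and 6.24 in resistant and 7.04, 7.06 and 7.05 in parental cells, −0.63 (SE 0.18, limma adjusted p = 0.0299). TSPAN31 kept its call with each array left out in turn. Without resistant replicate 1 the 12 calls became 7, 6 rises and 1 fall, and those of DTX3, OS9, XPOT, CAND1 and MDM1 were lost.

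MDM2, at 8.99, 8.77 and 9.01 in resistant and 8.85, 8.60 and 8.68 in parental NCI-H520 cells, had a change of 0.21 (95% interval −0.19 to 0.61, limma adjusted p = 0.507). TBK1 had 9.36, 9.06 and 9.18 in resistant and 9.20, 9.13 and 9.01 in parental cells (0.09), and HMGA2 4.88, 4.73 and 4.38 in resistant and 4.64, 3.33 and 4.47 in parental cells (0.51), the last at low signal in both groups. All 3 groups overlapped.

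**Figure D5:**
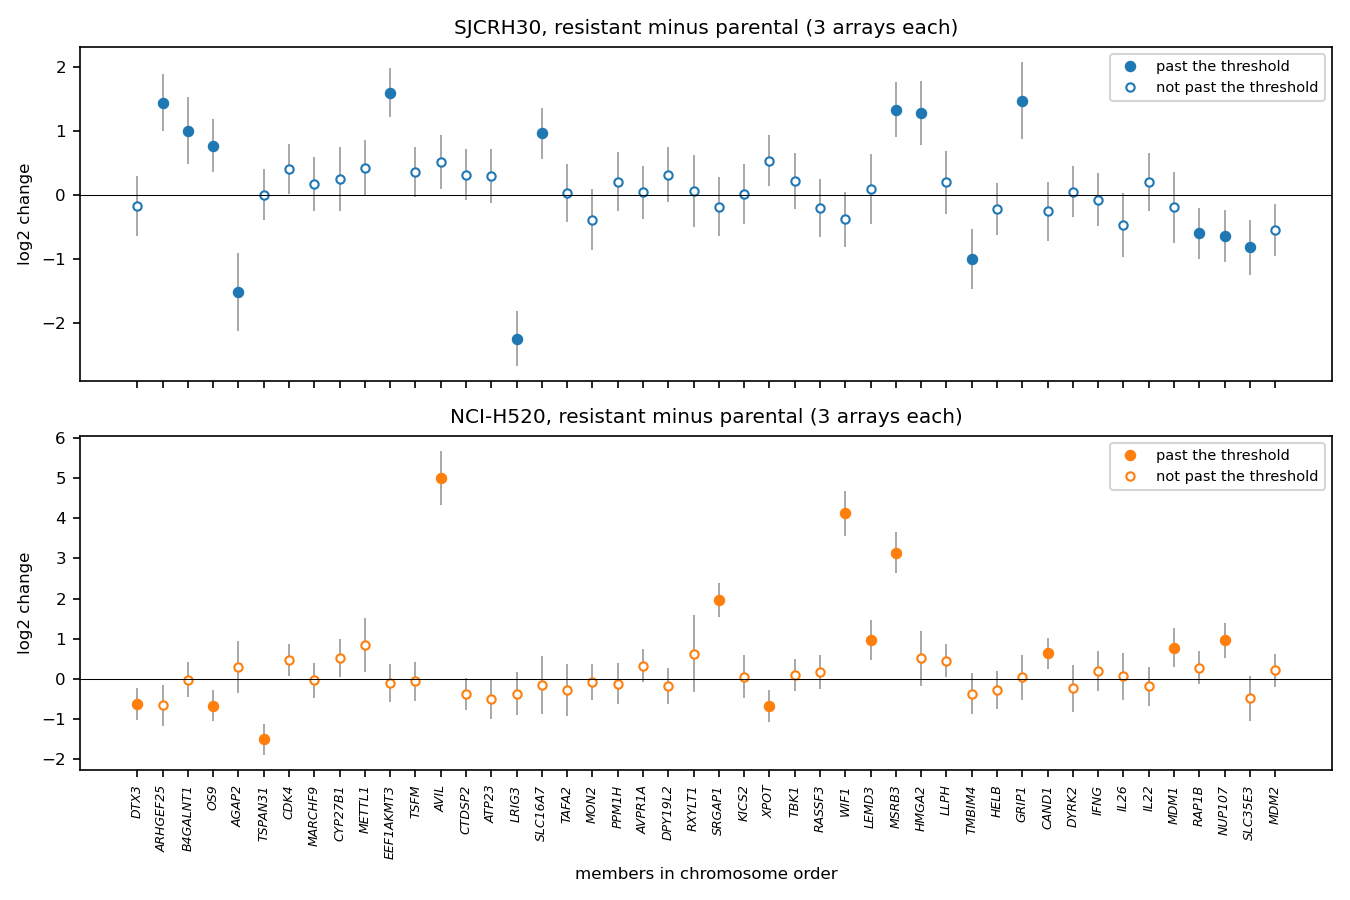
Log2 change, resistant minus parental (y axis), of the 46 genes in chromosome order (x axis) in SJCRH30 (top) and NCI-H520 (bottom), 3 arrays a group; bars are 95% intervals of the limma fit and filled points passed the threshold. LRIG3 at −2.25 and EEF1AKMT3 at 1.60 are the extremes in SJCRH30, and AVIL at 5.0 and TSPAN31 at −1.50 in NCI-H520; the y axes differ.

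The difference between the changes of the lines, SJCRH30 minus NCI-H520, was tested in 1 fit of the 4 groups. It passed the threshold for 19 of the 46 genes, 9 with a more positive change in SJCRH30 and 10 with a more negative one, against 11.3% and 11.8% of all clusters. The more positive were ARHGEF25 (2.10, SE 0.32, limma adjusted p = 9.61e-05), EEF1AKMT3 (1.70), TSPAN31 (1.51), OS9 and GRIP1 (both 1.43), XPOT (1.21), SLC16A7 (1.11), B4GALNT1 (1.03) and CTDSP2 (0.69). The more negative were WIF1 (−4.50, SE 0.33, limma adjusted p = 3.44e-08), AVIL (−4.50, SE 0.38), SRGAP1 (−2.15), LRIG3 (−1.88), MSRB3 (−1.81), AGAP2 (−1.80), NUP107 (−1.61), CAND1 (−0.90), RAP1B (−0.87) and MDM2 (−0.76, limma adjusted p = 0.0356). The calls of SLC16A7, CTDSP2, MDM2 and B4GALNT1 were not stable, since they were lost in 13, 12, 7 and 6 of the alternative settings, and each of the 7 for MDM2 left out 1 of the 12 arrays. MSRB3 was the one gene past the threshold upwards in both lines, and NUP107 and OS9 passed it in opposite directions. No difference was detectable for the changes of CDK4 (difference −0.07, 95% interval −0.56 to 0.42, limma adjusted p = 0.882) and of TBK1 (0.12, 95% interval −0.44 to 0.68, limma adjusted p = 0.803).

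The pathway genes around CDK4, MDM2 and TBK1 lie elsewhere in the genome and were written down as lists. Past the threshold, 5.69% of all clusters rose and 3.08% fell in Rh41, 9.42% and 9.28% in SJCRH30, and 10.1% and 9.90% in NCI-H520. Between the parental lines 22.2% were higher and 22.1% lower in SJCRH30. The medians over all clusters were −0.035 in Rh41, 0.0070 in SJCRH30, 0.0065 in NCI-H520 and 0.023 between the parental lines. Among 12 measured D-type cyclins, retinoblastoma family genes, CDK6 and CDK inhibitors, 2 rose and 0 fell in resistant Rh41 cells: CDKN1A, which encodes p21, by 1.07 (SE 0.11) and CCND1 by 1.06 (SE 0.10). In resistant SJCRH30 cells 3 rose and 0 fell, CCND3 at 1.11, CDKN2A at 0.69 and CDK6 at 0.60. In resistant NCI-H520 cells CCND3 (0.88) and RBL1 (0.81) rose, and CDKN1A (−1.96) and RBL2 (−0.95) fell. Between the parental lines 5 were higher and 1 lower in SJCRH30, with CCND2 at 9.59, CCND3 at 3.98 and RBL2 at −1.15. The list medians were −0.023 in Rh41, 0.11 in SJCRH30, 0.27 in NCI-H520 and 0.13 between the parental lines.

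Of 7 measured regulators of p53 and MDM2, HIPK2 fell in resistant Rh41 cells (−0.78) with 0 rises, none passed the threshold in resistant SJCRH30 cells, and TP53BP1 rose in resistant NCI-H520 cells (1.10) with 0 falls; the medians were −0.15, 0.14 and 0.14. Between the parental lines RPL11 was higher (0.96) and HIPK2 (−2.97) and USP7 (−1.15) were lower in SJCRH30 (median 0.21). Of 22 measured p53 target genes, 3 rose and 0 fell in resistant Rh41 cells, where MDM2, itself a p53 target, was lower: CDKN1A (1.07), TIGAR (0.90) and RRM2B (0.60), with a median of 0.071. In resistant SJCRH30 cells 4 rose and 4 fell (median −0.0087), among them GADD45A at 1.41, AEN at 1.24, XPC at −1.02 and TIGAR at −0.87. Resistant NCI-H520 cells had 1 rise and 7 falls of the 22 (median 0.10), where 10.1% of all clusters rose and 9.90% fell. Among these genes were TIGAR at 1.11, CDKN1A at −1.96 and the cyclin gene CCNG1 at −1.80. Between the parental lines 10 were higher and 5 lower in SJCRH30 (median 0.41), with GADD45A at 3.94, CDKN1A at 2.61, SESN2 at −1.91 and RRM2B at −1.67.

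Of 11 genes that act with TBK1 in innate sensing, STING1 rose (1.47, SE 0.11) and TRAF3 fell (−0.62) in resistant Rh41 cells, in which TBK1 itself was lower (median of the list 0.082). In resistant SJCRH30 cells TANK rose (1.58) and AZI2 (−1.31) and OPTN (−1.12) fell (median 0.056). TRAF3 was the single gene to pass in resistant NCI-H520 cells, at −1.10 (median 0.023). Between the parental lines 3 were higher and 1 lower in SJCRH30 (median 0.26), with STING1 at 2.16, TBKBP1 at 2.11 and TANK at −1.87.

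The neighbours beside the stretch passed the threshold in both directions in SJCRH30 and NCI-H520. Over all clusters 9.42% rose and 9.28% fell in SJCRH30, and 10.1% and 9.90% in NCI-H520. In SJCRH30, 11 of 20 on the centromere side and 12 of 20 on the far side were below 0. In NCI-H520 these counts were 13 and 4 of 20, so most of the far side there lay above 0. On the centromere side 5 rose and 3 fell of 20 in resistant SJCRH30 cells (INHBE at 2.35, DDIT3 at 2.13, GLI1 at −1.02 and R3HDM2 at −0.79; median −0.099, and 0.060 over the 17 at a mean of 5 or more), and there was 1 rise beside 5 falls in resistant NCI-H520 cells (NEMP1 at 1.74, INHBE at −1.83 and SHMT2 at −1.53; median −0.15). On the far side 1 rose and 3 fell of 20 in resistant SJCRH30 cells (LGR5 at 4.42, TBC1D15 at −0.73 and TMEM19 at −0.64; median −0.035), and there were 4 rises and 1 fall in resistant NCI-H520 cells (BEST3 at 2.55, TMEM19 at 1.36 and ZFC3H1 at −0.60; median 0.28). Of the non-members inside the interval, TBC1D30 rose in resistant NCI-H520 cells (0.98).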

How the data were processed

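Total RNA was hybridized to Affymetrix Clariom S arrays, 20 in all. The authors deposited log2 values made by RMA with quantile normalization of the scanned arrays. No version of that step was stated, and the values were used as they stood. Sorted by size, values matched within 0.0017 over the 8 arrays of Rh41 and within 0.0052 over the other 12, but the sets differed in spread (ratio of standard deviations 1.50), so Rh41 was normalized apart, and every fold holds on the deposited scale alone. Arrays of a group correlated at 0.983 to 0.994. Precision rests on how many arrays each group had.

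Of 21448 clusters, 17709 with 1 gene symbol in the platform annotation were tested (17687 symbols, 20 of them with more than 1 cluster) and 3739 without one were left out. For every comparison a separate limma fit (version 3.58.1, R 4.3.3; lmFit and eBayes, two-sided) was made, with Benjamini-Hochberg adjustment over all 17709; a gene passed with its adjusted p under 0.05 and its fold above 1.5. Errors are moderated standard errors. Means under log2 5 were taken as low signal and kept.

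The members, lists and tests were chosen with earlier results of these data known. Named genes were CDK4, TSPAN31, MDM2, TBK1, HMGA2 and OS9, the members past the threshold (up to 8 in each direction, in Rh41 the 8 largest falls), and up to 2 rises and 2 falls per list; the remaining members, edge genes and a further gene of a small count were named with their values seen. Markers of leukocytes, endothelium and stroma served as a check for other cells: of 5, 4 and 6 measured, 1 to 3, 1 to 3 and 4 to 5 had a mean of log2 5 or more in a group, with 0 leukocyte and 0 endothelial markers past the threshold between resistant and parental cells of any line, whereas PDGFRB rose in Rh41 (1.09) and THY1 in SJCRH30 (2.71). RefSeq (GRCh38.p14) gave gene order and the printed sequences, and no coordinates of the array clusters were used. Replicate numbers were checked for pairing, as given in the closing section. Plots were made in Python 3.11.15 (matplotlib 3.10.9).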

Additional observations from a re-analysis of the deposited data

Results flagged for a closer look

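AVIL stood apart in resistant Rh41 culture 3, at 4.76 against 5.08 to 5.16 in the other resistant cultures, and IL26 in resistant culture 2, at 2.36 against 2.64 to 2.70, both at or near low signal. These were 2 of the 46 groups of resistant Rh41 values tested for a value far from the rest, where chance gives about 1 in 20.

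The changes in SJCRH30 and NCI-H520 differed by the test of the difference itself (limma, SJCRH30 minus NCI-H520) for 19 genes, with the values ARHGEF25 2.10, EEF1AKMT3 1.70, TSPAN31 1.51, OS9 1.43, GRIP1 1.43, XPOT 1.21, SLC16A7 1.11, B4GALNT1 1.03, CTDSP2 0.69, MDM2 −0.76, RAP1B −0.87, CAND1 −0.90, NUP107 −1.61, AGAP2 −1.80, MSRB3 −1.81, LRIG3 −1.88, SRGAP1 −2.15, AVIL −4.50 and WIF1 −4.50.

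In 12 genes every resistant SJCRH30 array lay above every parental one while every resistant Rh41 array lay below; the difference was not tested, since the scales are unequal and Rh41 served to choose the genes. The SJCRH30 changes were EEF1AKMT3 1.60, GRIP1 1.47, ARHGEF25 1.44, MSRB3 1.33, HMGA2 1.28, OS9 0.77, XPOT 0.53, AVIL 0.51, METTL1 0.43, CDK4 0.40, TSFM 0.36 and CTDSP2 0.31, of which the first 6 passed the threshold. This pattern held for 26.1% of the members and 2.98% of all clusters. In 8 members (AGAP2, LRIG3, WIF1, TMBIM4, RAP1B, NUP107, SLC35E3 and MDM2) the resistant arrays lay below in both lines, 17.4% against 2.65% of all clusters, and nothing is read from either share because the members were chosen as low in Rh41. The same held for 10 genes in NCI-H520, also untested: AVIL 5.0, WIF1 4.12, MSRB3 3.14, SRGAP1 1.97, LEMD3 0.97, NUP107 0.96, METTL1 0.85, MDM1 0.78, CAND1 0.64 and CDK4 0.47, all but METTL1 and CDK4 past the threshold. That is 21.7% of the members and 2.91% of all clusters. In 5 members (DTX3, OS9, TSPAN31, CTDSP2 and XPOT) the resistant arrays lay below in both lines, 10.9% against 2.72%. Nothing is read from these shares either, since the members were chosen as low in Rh41.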

How the results depend on the processing

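The counts of members past the threshold stayed within 1.5 times their value under the alternatives run (a low-mean filter, 1 quantile normalization of all 20 arrays, all clusters tested, centring, an intensity trend, array weights, and each array left out), with the exceptions named here. In Rh41 the adjusted p alone gave 35 falls in place of 23. Normalizing all 20 arrays together gave 33 calls in Rh41, within that limit, and OS9 then passed the threshold. In NCI-H520 the count of 12 ranged between 7 and 10 when 1 array was left out, with 7 (6 rises, 1 fall) without resistant replicate 1 and 8 (7 rises, 1 fall) without parental replicate 3. Left-out arrays gave 11 to 13 calls against 14 in SJCRH30, 19 to 24 against 23 in Rh41, 34 to 36 against 35 between the parental lines and 16 to 18 against 19 for the difference of the lines. The median change in Rh41 was −0.5794, and −0.6123 without low means, −0.8917 with all arrays normalized together and between −0.6074 and −0.5397 with 1 array left out. It lay between −0.0069 and 0.178 in NCI-H520 and between 0.0635 and 0.1541 in SJCRH30 with 1 array left out. Small changes turned sign: TSPAN31 in SJCRH30 was −0.0226 with array weights and between −0.0491 and 0.0707 with 1 array left out (below 0 without resistant replicate 1 or 3 or parental replicate 3), TBK1 between the parental lines was −0.1019 without SJCRH30 parental replicate 3, and TBK1 for the difference of the lines lay between −0.0029 (without SJCRH30 parental replicate 1) and 0.2766. Among single genes, SLC16A7, CTDSP2, MDM2 and B4GALNT1 lost the call on the difference of the lines in 13, 12, 7 and 6 settings, RAP1B in SJCRH30 in 8, NUP107 in SJCRH30 in 6, B4GALNT1 and OS9 in SJCRH30 in 1 each (without parental replicate 2 and without parental replicate 1), KICS2 between the parental lines in 2, and DTX3, XPOT, CAND1, OS9 and MDM1 in NCI-H520 in 7, 6, 5, 4 and 4. In Rh41 CDK4 passed the fold threshold narrowly and lost it in 6 settings, HELB in 4, TSFM in 3 and AGAP2, TBK1, MDM1 and MSRB3 in 1 each. Deviations of arrays with the same replicate number correlated at 0.044 to 0.107 (NCI-H520), −0.015 to 0.117 (SJCRH30) and −0.178 to 0.276 (Rh41). For unlike numbers the ranges were −0.121 to 0.038, −0.09 to 0.074 and −0.218 to 0.2. In NCI-H520 the same-number values all lay above the others. The numbers were not taken as pairs. With the replicate block the counts were 14 in NCI-H520, 13 in SJCRH30, 22 in Rh41, 36 between the parental lines and 20 for the difference. One joint fit of the groups that share a normalization was run as well; for Rh41, with its 2 groups, and for the difference this is the fit given. The causes of these shifts were not tested.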
